A study of Mus musculus with 2 samples.

Results

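Plasmacytoid dendritic cells (pDC) were taken from the pooled count matrix of a mouse oral cancer experiment by a gate on raw UMIs, which count distinct captured transcripts. A barcode, that is, 1 droplet read as 1 cell, entered the gate with at most 10% mitochondrial UMIs, at least 3 UMIs of Siglech and at least 3 of Bst2. It also needed fewer than 20 UMIs over C1qa, C1qb and C1qc, at most 1 over Cd3d, Cd3e and Cd3g, and 0 of Cd79a. The gate held 59 of 12514 barcodes. These 59 members were chosen by their expression, so levels of the gate genes, and every ratio of members to other barcodes, are descriptions and carry no test.

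The study grafted MTC-Q1 cells, a mouse oral cancer line, under the skin of C57BL/6 mice. One group received WT cells and the other MTC-Q1 miR-21 KO cells, in which the microRNA miR-21 is knocked out. The pDC themselves belong to the C57BL/6 host in both groups, and no source used here names a change in the host. Both groups had 2 weeks of tumour growth and were then given cisplatin, a drug that crosslinks DNA, at 5 mg/kg, so there was no untreated group. CD45+ cells were isolated 72 h after the dose, following removal of dead cells, and 3′ ends of transcripts were sequenced from droplets. Each group is 1 library, and the sources used here do not state how many mice were pooled, whether the KO cells are 1 clone, or the age and sex of the mice. Barcodes carry a library number that no source ties to WT or miR-21 KO. The libraries go by those numbers here, and a difference between library 1 and library 2 is not read as one between WT and KO. With 1 library per group there is no replicate, so no test was made, and all intervals are exact 95% intervals that cover counting error only.

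Plasmacytoid dendritic cells are blood-borne cells that sense viral and self nucleic acids through endosomal Toll-like receptors and can release large amounts of type I interferon. They are kept in their lineage by the E protein Tcf4 (E2-2) together with Irf8, Spib, Runx2 and Bcl11a, and they share several genes with B and T cell precursors. In tumours they are known for weak interferon output and for receptors that hold back T cells.

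Library 1 held 18 members among 5241 barcodes within the mitochondrial limit, which is 0.343% (0.204 to 0.542%). Library 2 held 41 among 7098, or 0.578% (0.415 to 0.783%). The order of the libraries turned with the denominator. Among barcodes outside the T and B cell gates the shares were 1.21% in library 1 and 0.779% in library 2. Among the pDC gate and the 3 gates for other dendritic cells (cDC1, cDC2 and migratory DC), pDC made up 18 of 38 barcodes in library 1 (47.4%, 31.0 to 64.2%) and 41 of 199 in library 2 (20.6%, 15.2 to 26.9%). Of barcodes with at least 10000 UMIs, 0.819% and 0.156% were members. The libraries held 57488236 and 149734240 UMIs. Depth moves with the shares: library 2 was deeper per barcode (median 15363 UMIs against 7195 in library 1), yet its members were shallower. Members had a median of 11295 UMIs in library 1 (7258 to 15582) and 7893 in library 2 (5789 to 74649). All 18 members of library 1 lay above their library's median and 3 of 41 did in library 2. Gm42418, which overlaps ribosomal RNA, took 20752 CPM (UMIs per 1000000 UMIs of the summed barcodes) in members of library 1 and 6329 CPM in those of library 2. The part of depth in the shares was not tested. Of the barcode sequences, 8 occurred in both libraries, and 0 of these were members.

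Siglech and the Cd3 limit decided nearly all of the membership. At least 3 Siglech UMIs, within the mitochondrial limit, were found in 23 barcodes of library 1 and 57 of library 2, and 0 of them failed the Bst2 limit. The Cd3 limit was failed by 5 and 16 barcodes, the C1q limit by 0 and 3, and the Cd79a limit by 2 and 1. Those with Cd3 held 4 to 59 Cd3 UMIs in library 1 and 2 to 153 in library 2, beside 7 to 11 and 4 to 12 of the 12 pDC markers described next. Their median depth was 21204 and 25519 UMIs, above the members' depth in the same libraries, and 4 of the 16 in library 2 were in the top 5% of doublet scores. Near the limit there was little: 1 member had 3 Siglech UMIs, and 2 barcodes of library 2 that met every other condition had 2. That member had 10 of the 12 markers, and the 2 barcodes just outside had 4 and 6.

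The label was checked on 12 pDC markers that the gate does not use: Tcf4, Ly6d, Ccr9, Klk1, Cox6a2, Pacsin1, Upb1, Spib, Runx2, Klra17, Cd300c and Cd209d. Members carried a median of 11 of them in library 1 (7 to 12) and 9 in library 2 (4 to 12). After each barcode was thinned to 4000 UMIs the medians were 8.5 and 7. In the 8 gates for B cells, T cells, NK cells, macrophages, monocytes, cDC2, cDC1 and migratory DC the full-depth medians were 0 to 2. All 59 members had at least 4, and so did 92 of 5223 other barcodes in library 1 and 64 of 7057 in library 2. After thinning, 18 of 18 and 39 of 41 members had at least 4, beside 11 and 17 other barcodes. The 2 members below 4 were among those of library 2 with many Nkg7 UMIs (67 and 52), and 1 of them is the deepest member. The label was kept for the gate as a whole. These genes come from the same cells as the gate genes and are not an independent test of it.

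**Figure D1:**
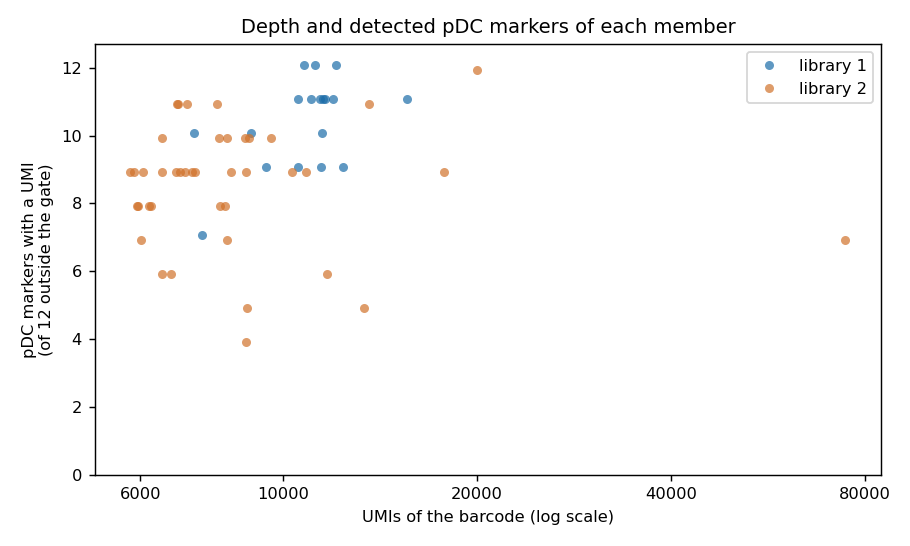
Each point is 1 member: the horizontal axis gives its UMIs on a log scale and the vertical axis the number of the 12 pDC markers outside the gate with a UMI (points are shifted slightly by library). The deepest member, at 74649 UMIs, had 7 markers, and the fewest, 4, were in a member of 8744 UMIs.

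The genes highest in the pDC gate over all other barcodes were a mixture of known pDC genes, tissue kallikreins, muscle-type genes and lymphoid genes. Of 1403 genes with at least 20 UMIs in the members of each library, 123 (8.77%) were at least 4-fold higher in members in both libraries, and 1 (0.0713%) was at least 4-fold lower in both. The lower gene was S100a4, a calcium-binding protein of motile cells, at 158 and 332 CPM against 668 and 1872 CPM. In library 1 it had a UMI in 3 of 18 members, and 1 of them held 29 of the 31 UMIs. Its place among the compared genes therefore rests on that member. The minimum of 20 UMIs removes most genes that are low in members, Apoe with 19 UMIs in library 1 among them, so the 2 counts cannot be set against each other. The median log2 ratio over all 1403 genes was 0.57 in library 1 and 0.28 in library 2, and after scaling by the median ratio the first count was 92. Ranked by the smaller ratio of the libraries, the first gene was Gm21762, a predicted gene, at 931 CPM in members and 0.706 CPM in other barcodes of library 1, and at 606 and 0.627 CPM in library 2. Klk1, a tissue kallikrein that cleaves kininogen, stood at 2237 CPM (2033 to 2457) in members of library 1 and at 691 CPM (613 to 776) in members of library 2. Other barcodes held 0.759 and 0.830 CPM of it. Klk1b27, a close relative of Klk1, stood at 300.01 and 87.3 CPM, and reads from such similar genes may have been split between them. Foxr1, a forkhead factor, had log2 ratios of 10.37 (8.94 to 12.12) and 8.86 (7.88 to 9.87), on 23 and 22 UMIs. Paqr5, a membrane progestin receptor, had log2 ratios of 8.81 and 8.18, and Cd300c, an immunoglobulin-type receptor of myeloid cells, 9.22 and 8.004.

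**Figure D2:**
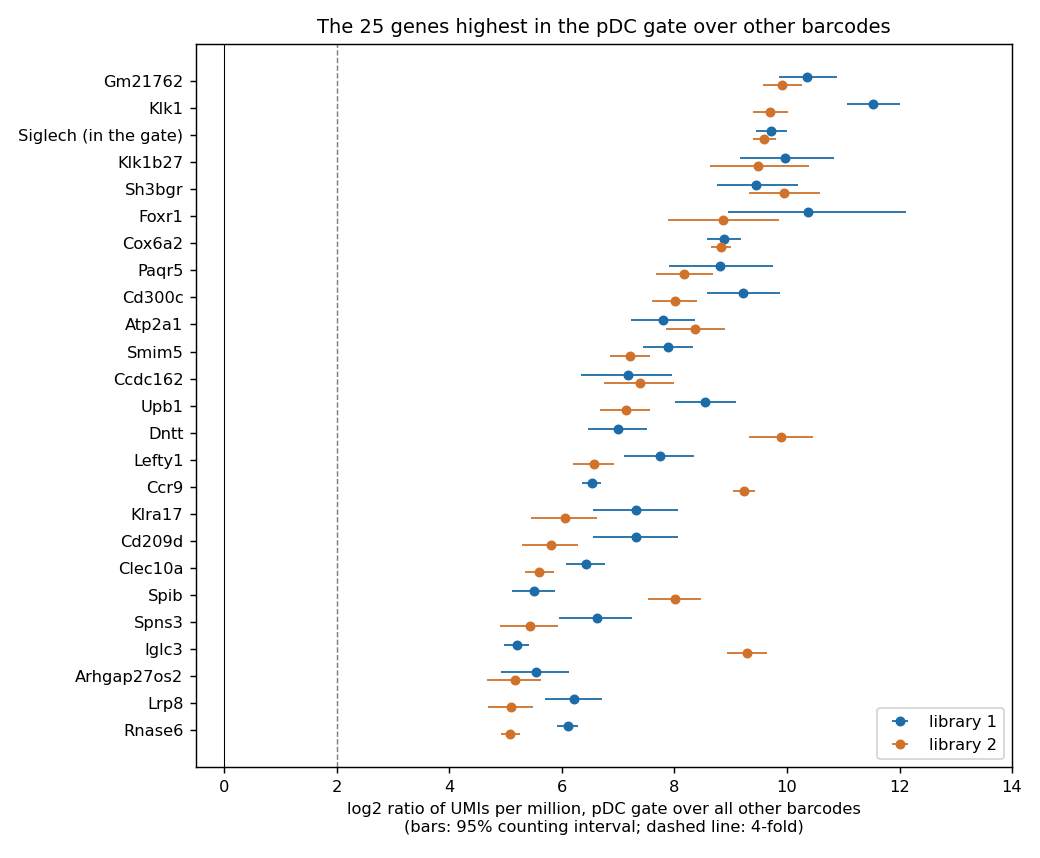
The log2 ratio of CPM in the pDC gate over all other barcodes is plotted for the 25 highest genes, with points for library 1 and library 2 and bars for the 95% counting interval. All 25 lie right of the dashed 4-fold line in both libraries. Siglech is among them and was used to choose the members.

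Tcf4 belongs to the basic helix-loop-helix proteins, which bind E-boxes, the letters CANNTG. Since the highest genes were high in the same cells as Tcf4, the 250 bases before their start sites were searched in the RefSeq promoter table (GRCm38.p6) for 2 forms on both strands. One is CACCTG, which reads CAGGTG on the other strand, and the second is CAGCTG, its own reverse complement. Both are cases of CANNTG, and they cannot match at one position. Of the 25 highest genes 15 had an entry. CACCTG was found in 6 of the 15, against 4620 of 27025 genes with an entry (17.1%). CAGCTG was found in 2 of the 15, against 12.8% of all, and any CANNTG in 13 of the 15, against 66.0% of all. A match describes the letters only and was not tied to binding. The windows of the 4 highest genes with an entry are printed 5′ to 3′ along the gene, with matches to either form in capitals, because these are the genes with the largest ratios. Klk1 and Siglech hold 1 match each, Foxr1 holds 2, and Klk1b27 holds 0, whereas its relative Klk1 has 1. Start sites are those of the promoter table. RefSeq gene positions start Siglech at 55768154, inside its window, and its match lies past that position.
Klk1, chr7:44225110-44225359, plus strand: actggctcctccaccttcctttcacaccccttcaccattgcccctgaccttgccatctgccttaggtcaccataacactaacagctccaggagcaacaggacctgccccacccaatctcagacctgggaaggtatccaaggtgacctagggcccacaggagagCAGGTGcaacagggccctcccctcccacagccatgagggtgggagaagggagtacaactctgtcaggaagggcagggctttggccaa
Siglech, chr7:55767934-55768183, plus strand: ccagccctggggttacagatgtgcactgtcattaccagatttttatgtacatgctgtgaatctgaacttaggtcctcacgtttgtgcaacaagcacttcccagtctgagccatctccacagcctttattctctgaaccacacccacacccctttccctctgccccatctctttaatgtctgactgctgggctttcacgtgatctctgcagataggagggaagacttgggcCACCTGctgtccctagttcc
Klk1b27, chr7:44052040-44052289, plus strand: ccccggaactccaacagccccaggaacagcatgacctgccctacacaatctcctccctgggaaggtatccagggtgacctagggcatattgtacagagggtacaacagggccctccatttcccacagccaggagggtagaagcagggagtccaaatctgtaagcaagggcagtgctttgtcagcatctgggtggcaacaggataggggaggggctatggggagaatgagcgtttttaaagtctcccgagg
Foxr1, chr9:44440869-44441118, minus strand: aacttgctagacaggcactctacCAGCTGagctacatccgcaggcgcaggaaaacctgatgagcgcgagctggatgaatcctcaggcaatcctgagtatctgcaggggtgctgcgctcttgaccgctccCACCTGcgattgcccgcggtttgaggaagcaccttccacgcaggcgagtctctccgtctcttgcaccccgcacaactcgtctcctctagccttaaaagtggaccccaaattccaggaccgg

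Tcf4 and Irf8 were found in every member, and Spib, Runx2 and Bcl11a in most. Cbfa2t3, also listed for pDC, had a UMI in 9 of 18 members of library 1 and 12 of 41 of library 2. Tcf4 stood at 1551 CPM in library 1 (1382 to 1735) and at 1014 CPM in library 2 (919 to 1116). Per member it ranged from 8.02 to 36.1 UMIs per 10000 with a median of 13.3 in library 1, and from 1.07 to 30.3 with a median of 11.97 in library 2. The libraries' members overlapped over most of that range, with the low end in library 2. Tcf4 in the next gates was 326 CPM (migratory DC, library 1) and 188 CPM (macrophage, library 2), so the pDC gate was highest in both. Irf8, which directs dendritic cell and monocyte fates, was at 2492 and 1620 CPM, above the cDC1 gate at 1457 and 1100 CPM. Spib, an Ets factor that pDC share with B cells, was at 356 and 158 CPM. Runx2, needed for pDC to leave the bone marrow, was at 524 and 242 CPM, and Bcl11a, a zinc-finger factor of pDC and B cells, at 402 and 259 CPM. In library 2 Spib had a UMI in 29 of 41 members, Bcl11a in 28 and Runx2 in 34. After thinning Spib was found in 10 of 18 and 19 of 41 members.

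Id2, Batf3, Zfp366 and Zbtb46, factors of the conventional dendritic lineage, were low in the same cells. Id2, an inhibitor of E proteins, was at 15.3 and 63.0 CPM in members against 188 and 281 CPM in other barcodes and 1305 and 850 CPM in the migratory DC gate. Batf3 and Zfp366 had 0 UMIs in all 59 members, and Zbtb46, a factor of conventional dendritic cells, had 1 UMI in each library. Klf4, also among the factors listed, had 24 UMIs in 8 of 18 members of library 1. In library 2 it had 32 UMIs in 13 of 41 members. Of the 20 transcription factors listed, 10 had enough UMIs to be compared and 6 of these were at least 4-fold higher in members: Tcf4, Irf8, Spib, Runx2, Bcl11a and Xbp1. The share over all 1403 genes was 8.77%. All of the 6 but Xbp1 were also listed as pDC identity genes, so nothing is read from the count. The 10 left out, Id2, Batf3, Zfp366 and Zbtb46 among them, had fewer than 20 UMIs in the members of at least 1 library, so the count says nothing of factors that are low in pDC. The 7 cDC2 markers summed to 615 and 601 CPM in members, against 129 and 81.3 CPM in other barcodes and 3058 and 1902 CPM in the cDC2 gate. Clec10a, also listed as a pDC identity gene, made up 463 and 339 CPM of the members' sums. The 7 cDC1 markers summed to 137 and 67.9 CPM, against 97.3 and 83.5 CPM in other barcodes. Clec9a, among the cDC1 markers, was at 76.3 and 26.7 CPM against 1.27 and 2.04 CPM.

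**Figure D3:**
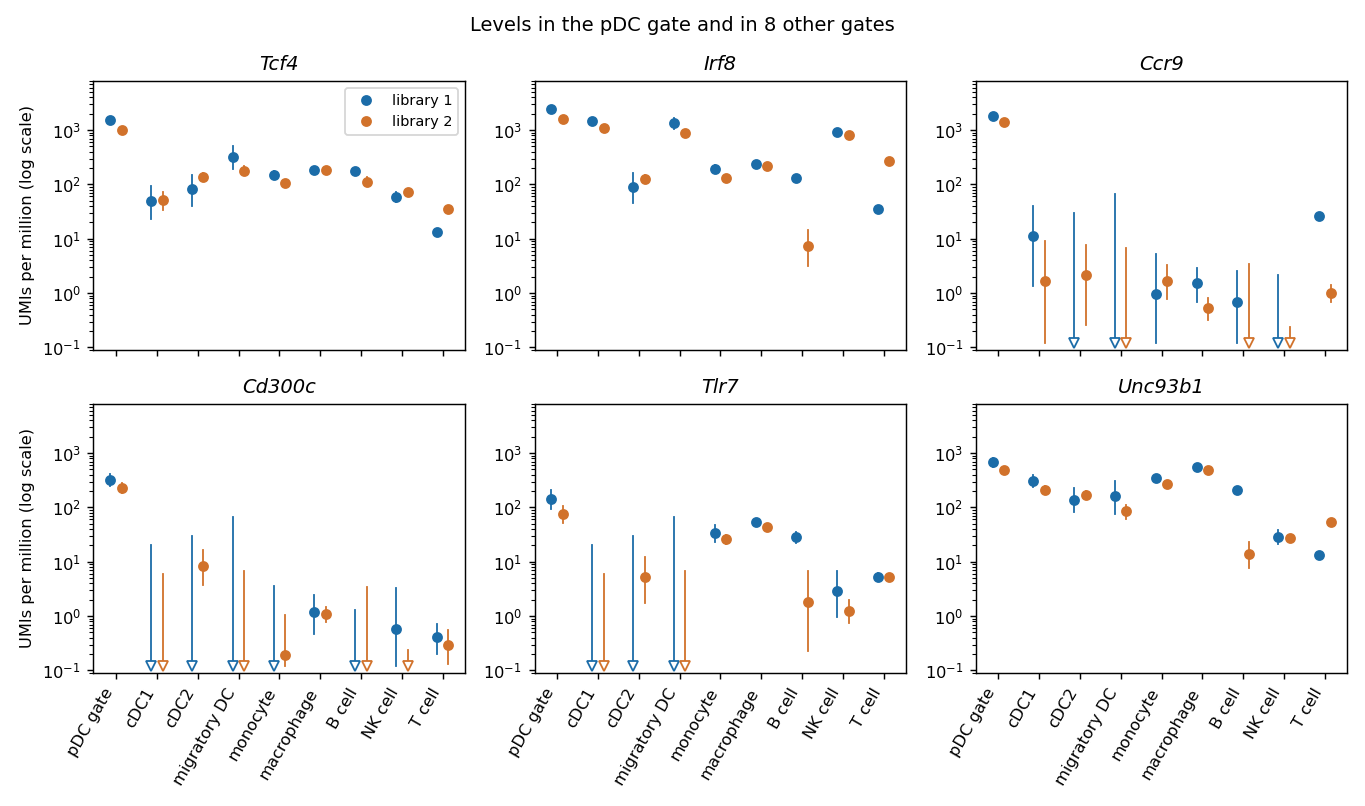
CPM (log scale) of 6 genes are plotted for the pDC gate and 8 other gates, with 1 point per library, bars for the 95% counting interval and open triangles at the axis floor for 0 UMIs. Tcf4, Irf8, Ccr9, Cd300c, Tlr7 and Unc93b1 are highest in the pDC gate in both libraries; the margin is widest for Ccr9 and Cd300c and narrow for Unc93b1.

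Of 34 pDC identity genes, 33 reached 20 UMIs in both libraries and 29 of these were at least 4-fold higher in members. The 4 others were Bst2, Zeb2, Grn and Ptprs, and Cbfa2t3 fell short of the minimum with 18 UMIs in library 1. These genes were listed with the gate's contrast known, so nothing is read from the count. Against the 8 other gates, the pDC gate had the highest level in both libraries for 27 of the 34. It did not for Plac8, at 5049 and 4095 CPM, and Ly6c2, at 5929 and 3266 CPM, which were higher in the monocyte gate, nor for Zeb2, Grn and Cbfa2t3. Clec10a and Cd209d, a pair of C-type lectins, were higher in the cDC2 gate of library 1 and in the pDC gate of library 2.

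Surface proteins on this list differed in how far the pDC gate stood above the next gate. Bst2, a gate gene, was 2.94 and 1.91 times the macrophage gate, and Cd7, a lymphoid surface protein, was 1.99 times the T cell gate in library 2. Ccr9, the receptor for the chemokine Ccl25, reached 1790 CPM in library 1 (1608 to 1987) and, in library 2, 1426 CPM (1313 to 1546). The highest other gate, T cells of library 1, held 25.8 CPM of it. After thinning, 17 of 18 and 40 of 41 members had a Ccr9 UMI, beside 7.84% and 0.495% of the T cell gate and 0.304% and 0.153% of the macrophage gate. Ly6d, a surface protein also found on B cell precursors, was at 2151 and 2864 CPM, with 0 to 74.2 UMIs per 10000 among members of library 1 and 0 to 133 among those of library 2. In library 1 the median member had 9.60 and in library 2 30.9, with wide overlap. Cd300c was at 325 and 230 CPM, and Klra17, the inhibitory receptor Ly49Q, at 127 and 72.7 CPM. Havcr1, which encodes the phosphatidylserine receptor TIM-1, was at 71.2 CPM (38.9 to 119) and 50.9 CPM (31.5 to 77.8) on 14 and 21 UMIs. Other barcodes held 0.0177 and 0.0674 CPM of Havcr1. After thinning 5 of 18 and 7 of 41 members had a Havcr1 UMI, beside 0% of the T cell gate in both libraries.

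Inhibitory and signalling receptors followed. Lag3, an inhibitory receptor that binds MHC class II, was at 366 and 153 CPM, above the NK cell gate at 59.9 and 33.5 CPM. Lair1, an inhibitory collagen receptor, was at 712 and 388 CPM, and Tyrobp, the adaptor through which Siglech signals, at 4856 and 4830 CPM. Pdcd1 and Havcr2, the checkpoint receptors PD-1 and TIM-3, had 1 and 0 UMIs over all members. Flt3, the cytokine receptor that sustains dendritic cells, was at 137 and 53.3 CPM, highest in the pDC gate in library 1 and below the migratory DC and cDC1 gates (75.5 and 75.4 CPM) in library 2. Of 24 such receptors 14 could be compared and 7 were at least 4-fold higher in members, beside 8.77% of all 1403 genes. The list holds both gate genes, Siglech (among the 7) and Bst2.

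**Figure D4:**
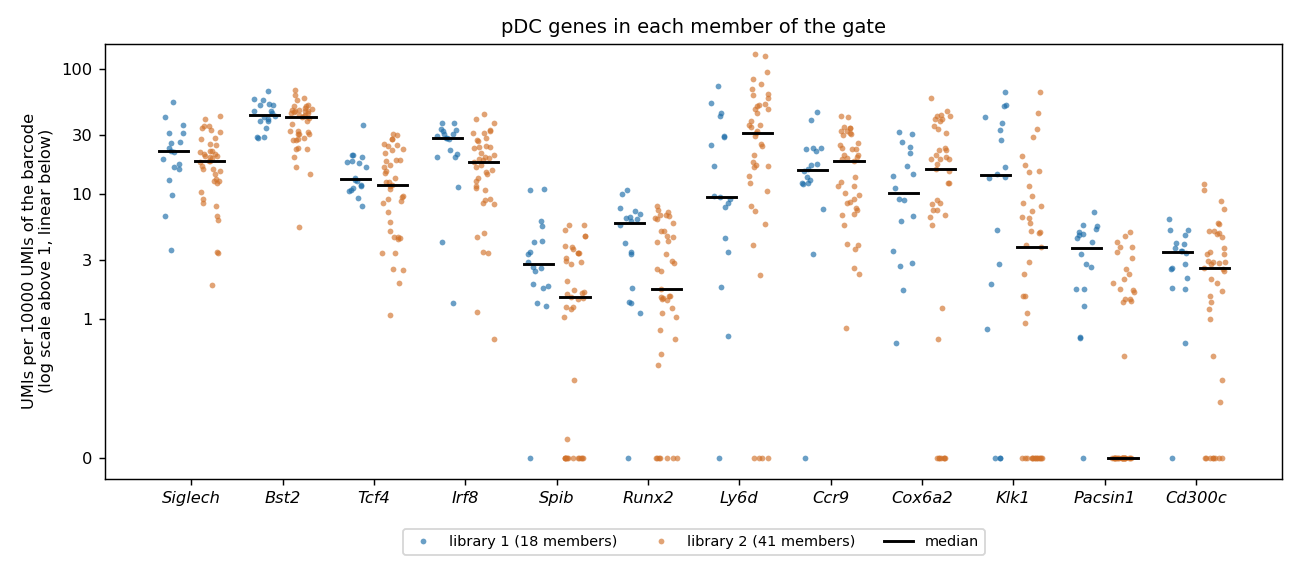
Each point is 1 member, with its UMIs of 12 pDC genes per 10000 UMIs of the barcode on an axis that is linear below 1 and logarithmic above; black bars are medians. Siglech and Bst2 set the gate. Members of both libraries overlap for every gene, and zeros are most frequent for Pacsin1 in library 2, where 19 of 41 members had a UMI.

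Several genes known from muscle were among the highest. Cox6a2, the heart and skeletal muscle form of a cytochrome c oxidase subunit, reached 1276 CPM in library 1 (1123 to 1444) and, in library 2, 1431 CPM (1318 to 1551). Other barcodes held 2.70 and 3.16 CPM of it. It had 1 to 37 UMIs per member in library 1 and 0 to 48 in library 2, with medians of 12.5 and 12. After thinning it was found in 15 of 18 and 31 of 41 members, and in 2.43% and 1.22% of the macrophage gate. Atp2a1, the calcium pump of fast muscle, was at 244 and 145 CPM against 1.09 and 0.438 CPM. Sh3bgr, a gene of an SH3-binding protein, was at 310.2 and 199 CPM against 0.442 and 0.202 CPM. Pgam2, the muscle form of phosphoglycerate mutase, was at 203 and 38.8 CPM, on 40 and 16 UMIs, against 0.0706 and 0.182 CPM. Tnni2, fast troponin I, was named after its values were seen: it had 18 UMIs (91.5 CPM) and 10 UMIs (24.2 CPM), against 5.48 and 11.0 CPM elsewhere. These muscle genes were put together after their values were seen.

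Genes of lymphocyte precursors made another group. Of 18 listed, 8 could be compared and 6 were at least 4-fold higher in members: Ly6d, Dntt, Iglc3, Iglc2, Cd8b1 and Cd4. Over all 1403 genes the share was 8.77%. The list was drawn up for pDC, so nothing is read from the count. Dntt, the template-free DNA polymerase of antigen receptor joining, was at 239 and 242 CPM against 1.87 and 0.256 CPM. Rag1 and Rag2, which cut the receptor genes, had 0 UMIs in all members. Iglc3, the constant region of a lambda light chain, was at 1022 and 446 CPM. It was uneven, from 0 to 42 UMIs per member in library 1 and 0 to 20 in library 2, and absent at this depth from 4 of 18 and 13 of 41. The B cell gate held 293 and 31.6 CPM of Iglc3, below the pDC gate. Ighm, the IgM heavy chain constant region, was at 956 and 584 CPM. Thinned barcodes with an Ighm UMI were 18 of 18 and 38 of 41 members, but also 37.2% and 26.4% of the T cell gate and 13.4% and 9.87% of the macrophage gate. Cd8b1 was at 931 and 342 CPM while Cd8a, its usual partner, was at 91.5 and 116 CPM. The 8 B cell markers summed to 66.1 and 19.4 CPM in members, beside 6491 and 229 CPM in the B cell gate. Of the 8, which include the gate gene Cd79a, 5 and 7 had 0 UMIs in members.

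The machinery for sensing nucleic acids was present at low to moderate levels. Tlr7, the endosomal receptor for single-stranded RNA, had 28 UMIs in library 1 (142 CPM, 94.6 to 206) and 31 in library 2 (75.2 CPM, 51.1 to 107). It was highest in the pDC gate, with macrophages next at 53.3 and 44.0 CPM. Tlr9, the DNA receptor, had 5 UMIs in 3 members of library 1 and 0 in library 2, where the exact interval reaches 8.94 CPM. Unc93b1, which carries both receptors to endosomes, was at 676 and 492 CPM. Slc15a4, an endosomal transporter needed for their signal, was at 147 and 94.6 CPM, and Pld4, an endosomal nuclease, at 1210 and 674 CPM. Of 24 genes found in this list, 8 could be compared and 3 (Tlr7, Slc15a4 and Pld4) were at least 4-fold higher in members. Over all 1403 genes the share was 8.77%. Irf7, the factor that drives interferon genes, was at 788 and 483 CPM, below the monocyte gate at 1347 and 1057 CPM. Tlr2, Tlr4 and Tlr8, receptors of myeloid cells, had 0 UMIs each in library 1 and 4, 1 and 0 in library 2.

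No interferon transcript was seen in any member. Over 17 Ifna, Ifnab, Ifnb1 and Ifnl genes, 0 UMIs were counted in 59 members, which allows up to 5.08% of members with a UMI and 4.93 CPM. This limits members with a UMI at this depth, not members that express interferon. The same genes were not absent from the matrix: 35 other barcodes of library 2 held 263 UMIs, of which 185 lay in 1 barcode of the T cell gate, and library 1 held 1 UMI. Interferon response genes showed no count past the limit. Of 26 such genes 10 could be compared and 0 were at least 4-fold higher or lower in members. Without 5 library 2 members described in the comparison of libraries, 1 was at least 4-fold higher. Over all 1403 genes 8.77% were higher and 0.0713% lower. A count of 0 of 10 is near these shares, so nothing is read from it. Isg15 was at 264 and 444 CPM, below other barcodes at 437 and 789 CPM, and 1 member of library 2 held 49 of that library's 183 UMIs. Without the same 5 members Isg15 was at 264 and 553 CPM, a log2 ratio of library 1 over library 2 of -1.06 (-1.55 to -0.60). It was the 1 of 18 response genes past the limit of the library comparison in that setting, and with all members 0 of 19 were. The member with 49 UMIs was not among the 5. The receptor genes Ifnar1 (198 and 175 CPM) and Ifnar2 (412 and 308 CPM) were highest in the pDC gate among the gates compared.

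Chemokines were the main cytokine transcripts. Ccl4, a chemokine that attracts lymphocytes and monocytes, stood at 3254 CPM in library 1 (3007 to 3517) and at 1081 CPM in library 2 (983 to 1187), above the cDC2 gate of library 1 (1595 CPM) and the macrophage gate of library 2 (803 CPM). It was uneven: members held 0 to 182 UMIs in library 1 and 0 to 69 in library 2, and the 4 highest members supplied 72.8% and 53.1% of the UMIs. Macrophages also held a Ccl4 UMI in 55.3% and 59.5% of thinned barcodes, close to the members' 66.7% and 70.7%. Ccl3 had 56 UMIs in 5 members of library 1 and 20 in 7 members of library 2. Il12a, a subunit of interleukin 12, had 1 UMI in library 1 and 9 UMIs in 6 members of library 2, against 0.742 and 0.162 CPM in other barcodes. Il12b, Il6, Il10 and Ido1 had 0 UMIs in members.

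Xbp1, the factor that builds the secretory apparatus, was at 397 CPM (314 to 495) and 381 CPM (323 to 445), the highest of all gates in both libraries. It ranged among members from 0.829 to 7.44 UMIs per 10000 in library 1 and from 0 to 10.3 in library 2, where 34 of 41 members had a UMI. Only Xbp1 of 18 compared genes of the secretory list was at least 4-fold higher in both libraries, a share no larger than the 8.77% of all genes. Herpud1, of endoplasmic reticulum quality control, was at 437 and 221 CPM against 50.3 and 56.4 CPM, and Sec11c, a signal peptidase subunit, at 529 and 470 CPM against 122 and 203 CPM.

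Genes for antigen presentation were near the level of other barcodes as a sum and uneven from member to member. H2-Ab1, an MHC class II chain, was at 783 and 541 CPM, against 12274 and 9097 CPM in the cDC2 gate. In library 1, 5 members had 0 H2-Ab1 UMIs, 8 had 1 to 9 and 5 had 10 or more. In library 2 these numbers were 18, 15 and 8. Cd86, a costimulatory ligand, had 0 UMIs in library 1 and 13 in library 2, and Ccr7, the lymph node homing receptor, had 1 and 0. S1pr1, which guides cells out of lymphoid tissue, had 0 UMIs in all members.

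Genes that respond to DNA damage were few in UMIs, with cisplatin given to both groups. Of 19 p53 targets 17 had a UMI in members and 1, Bax, could be compared, with log2 ratios of 0.01 and -0.53. Cdkn1a, the cell cycle inhibitor p21, was at 66.1 and 126 CPM against 190 and 445 CPM in other barcodes. Cycling genes were low: Mki67 had 0 UMIs in library 1 and 24 in library 2, of which 23 lay in the deepest member. Genes lowest in the gate among those of at least 200 CPM elsewhere were Bgn and Mgp, of connective tissue, Ccl5, Ccl2, Cd63, Apoe and the gate genes C1qa, C1qb, C1qc and Cd3g. Apoe, a lipid carrier of macrophages, was at 96.6 and 293 CPM against 2434 and 6355 CPM.

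Within members the libraries were compared gene by gene. A gene was counted when it differed by at least 2-fold with a counting interval beyond 1.5-fold and a UMI in at least 5 members of the higher library. Of 3715 genes with at least 20 UMIs over both libraries, 52 (1.4%) were higher in library 1 and 85 (2.29%) in library 2, with a median log2 ratio of -0.06. Both counts lean on a few barcodes. In library 2, 5 members held at least 10 UMIs of Lyz2, a lysozyme of myeloid cells, or of Nkg7, a granule protein of killer cells. These 5 held 33.8% of the UMIs of that library's members, the deepest alone 18.1%, and 1 of them was in the top 5% of doublet scores. Without them, a choice made after seeing the data, 24 genes were higher in library 1 and 46 in library 2, of which 21 and 27 were among those counted with all members. Leaving out only the deepest member of each library gave 27 and 59.

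With all members, the pDC identity genes leaned to library 1, and less so without the 5. Of the 34 identity genes 6 were past the limit toward library 1 (Klk1, Pacsin1, Lag3, Upb1, Spib and Runx2) and 0 toward library 2. Over all 3715 genes these shares were 1.4% and 2.29%. The list median was 0.64 on the log2 scale, beside -0.06 over all genes. Without the 5 members, 2 remained, Klk1 (1.28, from 1.70) and Pacsin1 (1.41, from 1.78), and the median was 0.35. Pacsin1, a membrane-bending adaptor, was at 341 and 99.4 CPM. With all members, Cox6a2, Lefty1 and Dntt lay near 0, at -0.16, -0.00 and -0.02, and Ly6d leaned to library 2 at -0.41 (-0.58 to -0.25). The deepest of the 5 held 18.1% of the UMIs of library 2 members. It held 0 of their 590 Cox6a2 UMIs, 0 of 100 for Dntt and 43 of 1181 for Ly6d. It therefore lowered the library 2 levels of Cox6a2, Dntt and Ly6d, and without it their ratios lie further toward library 2. Ratios of Cox6a2, Lefty1, Dntt and Ly6d without the 5 are not given here. Of the lymphoid list Cd8b1, at 1.44 with all members, was 1.21 without the 5.

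The genes furthest toward library 1 were Hspa1a, Ccl3, Pgam2, H2-Q6, Myo5a, Rnf139, Prps2, Pou2f2, Mfsd12 and AY036118, with log2 ratios of 2.88 to 2.13. Without the 5 members, Rnf139, Prps2, Pou2f2 and Mfsd12 were no longer past the limit. Hspa1a, a heat shock protein, had 42 UMIs in 5 members of library 1 and 12 UMIs in 6 members of library 2. Ccl3 was 2.55 (1.79 to 3.37) and Ccl4 1.59 (1.41 to 1.77) higher on the log2 scale, and without the 5 members 2.37 and 1.85. In other barcodes these chemokines leaned the other way: Ccl4 was lower in library 1, at 183 CPM, than in library 2, at 407 CPM. H2-Q6, a class I-like gene with close copies, had 50 and 21 UMIs, and its count may be shared with them. AY036118 lies, like Gm42418, in ribosomal sequence.

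The genes furthest toward library 2 were Gzmc, AW112010, Lyz2, Xcl1, Stmn1, Gzmf, Gzma, Gzmb, Spp1 and Mt1. They are known from killer cells, macrophages and dividing cells, and most of their UMIs lay in the 5 members. Gzmc, a granzyme, had 1234 UMIs in library 2 and 0 in library 1, and 21 UMIs remained without the 5. Gzma went from 215 UMIs to 4 and Gzmb from 209 to 6. Because the 5 were chosen by their Lyz2 or Nkg7 UMIs, a fall of Lyz2 without them is set by that choice. Lyz2 had 2 UMIs in library 1 and 261 in library 2, and 43 remained, at a log2 ratio of -3.95 (-7.04 to -2.01). Marker sums moved with this: the 8 NK cell markers summed to 229 CPM in members of library 1 and 1467 CPM in library 2, where 4 members had at least 10 UMIs of them. All 8 had a UMI in members of library 2 and 6 of 8 had 0 in library 1. The 8 monocyte markers summed to 86.4 and 868 CPM and the 9 macrophage markers to 122 and 531 CPM. The part of other cells' RNA in these ratios was not tested.

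**Figure D5:**
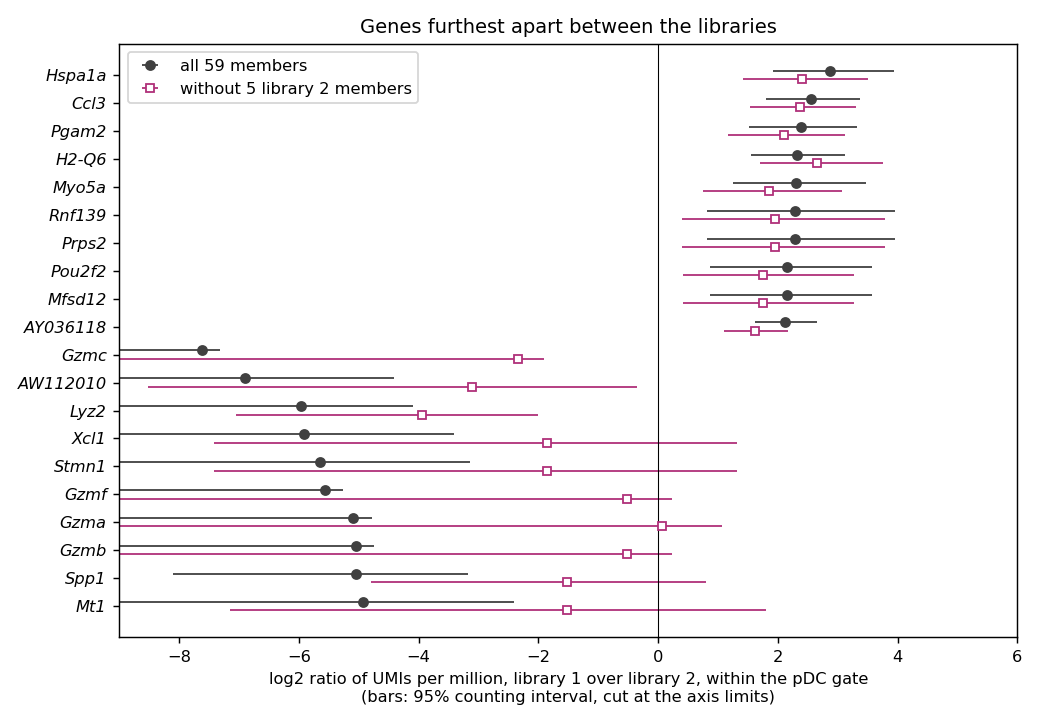
The log2 ratio of library 1 over library 2 within the pDC gate is plotted for the 20 genes furthest apart, with all 59 members (filled circles) and without the 5 library 2 members that had at least 10 Lyz2 or Nkg7 UMIs (open squares); bars are 95% counting intervals. Without the 5 members the library 1 genes lie between 1.63 and 2.66, and 4 of the 10 are no longer past the limit. Gzmc, Gzmf, Gzma and Gzmb have 0 UMIs in library 1, so their points are bounds set by the floor of 3 counts.

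Of 15 genes listed for transitional dendritic cells and their neighbours 7 could be compared between the libraries. Of these, 3 (Cd209a, Ms4a6c and Lyz2) were past the limit toward library 2, with and without the 5 members, beside 2.29% of all genes. Other barcodes leaned the same way, with a list median of -0.96, and Lyz2 there was lower in library 1 (1056 CPM) than in library 2 (4470 CPM). Cd209a, a C-type lectin of cDC2, had 2 UMIs in library 1 and 57 in library 2, and its log2 ratio was -3.76 (-6.84 to -1.85) with all members and -4.14 without the 5. One member of library 2 held 22 of the 57 UMIs, and it had 6 of the 12 pDC markers, 0 Ly6d UMIs and 21 S100a4 UMIs. Library 1 also held a member with 0 Ly6d UMIs, 1 Irf8 UMI and 29 S100a4 UMIs, beside 7 of the 12 markers. The member with the fewest markers, 4, was in library 2 and held 92 Ly6c2 UMIs and 1 Irf8 UMI. Axl, much used to mark transitional dendritic cells, had 1 UMI in library 1 and 5 in library 2. Cx3cr1 had 5 and 4, and the 5 of library 1 lay in 1 member.

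The libraries also differed in a gene unrelated to the pDC program. Xist, the RNA of the inactive X chromosome, had 255 UMIs in library 1, in 18 of 18 members, and 0 UMIs in 41 members of library 2. In other barcodes it was at 725 and 0.223 CPM. Ddx3y, Eif2s3y, Kdm5d and Uty, of the Y chromosome, had 0 UMIs in all members. In other barcodes of library 2 these 4 genes were also at 0 CPM, and in library 1 at 0.671 to 2.86 CPM. A difference between host animals therefore cannot be told apart from any other difference between the libraries.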

How the data were processed

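Cells were sequenced by droplet-based single-cell RNA sequencing in 2 libraries. The authors deposited 1 pooled matrix of whole-number UMI counts over 31053 genes and 12514 barcodes, not normalized; Cell Ranger 3.1.0 is named per the file headers, and mm10 per the submitters' processing notes. The sources used here name no annotation, strand setting or cell calling. Barcodes with few UMIs had been removed: the lowest totals were 4166 and 4810 UMIs. The barcode suffix gave the library. Counts were summed over members and over other gates and scaled to UMIs per 1000000 (CPM). Intervals are exact Poisson, Clopper-Pearson or conditional binomial at 95%; a 0 was set to a floor of 3 counts per library in a log2 ratio, whose point value is then a bound. Named genes are list members, the 25 highest and 10 lowest against other barcodes, and 10 per direction between libraries. The 25 highest had at least 20 UMIs in the members of each library. The 10 lowest had at least 200 CPM in other barcodes of both libraries. Genes named between libraries had at least 50 CPM in members of the higher library, and list members had no minimum. Ribosomal, mitochondrial, sex-linked and receptor variable genes were left out of these rankings. Xist and Y-linked genes are reported apart from them. Scrublet (scanpy 1.11.5) marked 0 barcodes, so its threshold did not work, and no doublets were removed. The gate, lists and tests were chosen with earlier results of these data known. Scripts were tested on simulated data. Values of a few listed genes are not reported here.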

Additional observations from a re-analysis of the deposited data

How the results depend on the processing

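Among barcodes of at least 10000 UMIs the shares of members became 0.819% and 0.156%, from 0.343% and 0.578%, and outside the T and B cell gates library 1 became 1.21%. Other Siglech, Bst2, C1q and mitochondrial limits, thinning before the gate and removal of high doublet scores kept the shares over barcodes within their intervals. Thinning lowered the median of detected markers from 11 and 9 to 8.5 and 7. The 123 genes at least 4-fold higher became 60 with at least 50 UMIs and 357 with no minimum, since the minimum sets how many genes are compared. Between the libraries, the 52 and 85 genes became 33 and 54 with at least 50 UMIs. Library 1 fell to 27 without the deepest member of each library, and the counts to 24 and 46 without the 5 members of at least 10 Lyz2 or Nkg7 UMIs. That last choice turned the sign of Gzma and Nkg7, both to a log2 ratio of 0.0586, by construction: library 1 has 0 UMIs, set to the floor of 3 counts, and library 2 has 4, so the counts still lie toward library 2 and no fold can be given. No paired analysis was possible because each group is 1 library and no source ties libraries to groups. Depth limits low genes: with 0 UMIs read as at most 3 counts, 15.3 CPM is allowed in members of library 1 and 7.27 CPM in library 2. The exact intervals for 0 UMIs reach 18.8 and 8.94 CPM.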
